A study of Mus musculus with 2 samples.

Results

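The 10 genes described here are the G1 cyclins, their kinases and their main inhibitors, taken by name from the 43346 Ensembl genes of the deposited tables. They are the D-type cyclins Ccnd1, Ccnd2 and Ccnd3, the E-type cyclins Ccne1 and Ccne2, the cyclin-dependent kinases (CDKs) Cdk2, Cdk4 and Cdk6, and the Cip/Kip inhibitors Cdkn1a and Cdkn1b. All 10 were found among the 21461 nuclear protein-coding genes, and the transcript tables held 54 transcripts of them.

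As background, D-type cyclins accumulate in response to growth signals and bind CDK4 or CDK6, and these kinases begin to phosphorylate the retinoblastoma protein, which holds E2F transcription factors in check. E-type cyclins then activate CDK2, which completes that phosphorylation and opens S phase. Cdkn1a (p21) and Cdkn1b (p27) bind these complexes and restrain CDK2, and Cdkn1a is a classic target of p53. In the embryonic forebrain, radial glia and intermediate progenitors run this circuit in the ventricular and subventricular zones, while the neurons that leave them are post-mitotic.

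Total RNA was sequenced from the forebrain of mouse embryos of strain B6NCrl at embryonic day 14.5, with 10 ng of RNA longer than 200 nt per library. The labels carry no treatment or genotype, so the data form 1 group of 2 libraries, numbered as biological replicates 1 and 2. Each is labelled a single forebrain, with a different collection date for each, yet the labels give both the same donor ID and a mixed sex, so whether they came from separate litters was not settled here. The depth was 35310017 expected counts in replicate 1 and 29250404 in replicate 2. An expected count is an estimated number of reads, which need not be whole, and TPM is a transcript level, that number per transcript length, scaled to a constant sum in each library. The limit set by 0 reads was taken as 3 counts; at 1 kb of effective length this equals 0.131 TPM in the first library and 0.170 TPM in the second, for counting error alone. Forebrain markers were present, with Dlx1 at 127.8 and 149.6 TPM and Lhx2 at 84.5 and 72.7 TPM, while the midbrain and hindbrain markers En1 and Hoxa2 were at 0 TPM in replicate 1 and 0.04 TPM in replicate 2. The tissue held dividing cells, neurons and blood together, and in such bulk RNA fewer cells of a type and less RNA per cell cannot be told apart.

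The 10 genes spanned a wide range of levels. Cdk4 and Ccnd2 stood above the rest, a middle group of Ccnd3, Ccnd1, Cdkn1b, Cdkn1a and Cdk2 lay between 33.7 and 53.8 TPM, and Ccne2, Ccne1 and Cdk6 were the lowest (means of the 2 libraries). Their median was 46.2 and 44.8 TPM in replicates 1 and 2, against 26.0 and 29.5 TPM over the 10368 nuclear protein-coding genes with a mean of at least 5 TPM. All 10 were above 1 TPM in both libraries. Neighbours in the order of levels were called apart where the deposited TPM intervals did not overlap in either library, in the same direction, and 7 of the 9 neighbouring pairs met this. Ccnd3 and Ccnd1, and Ccnd1 and Cdkn1b, did not. The intervals cover the assignment of reads and not the animals, and for Cdk4 and Ccnd2 the TPM itself lay just above its interval in both libraries.

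**Figure D1:**
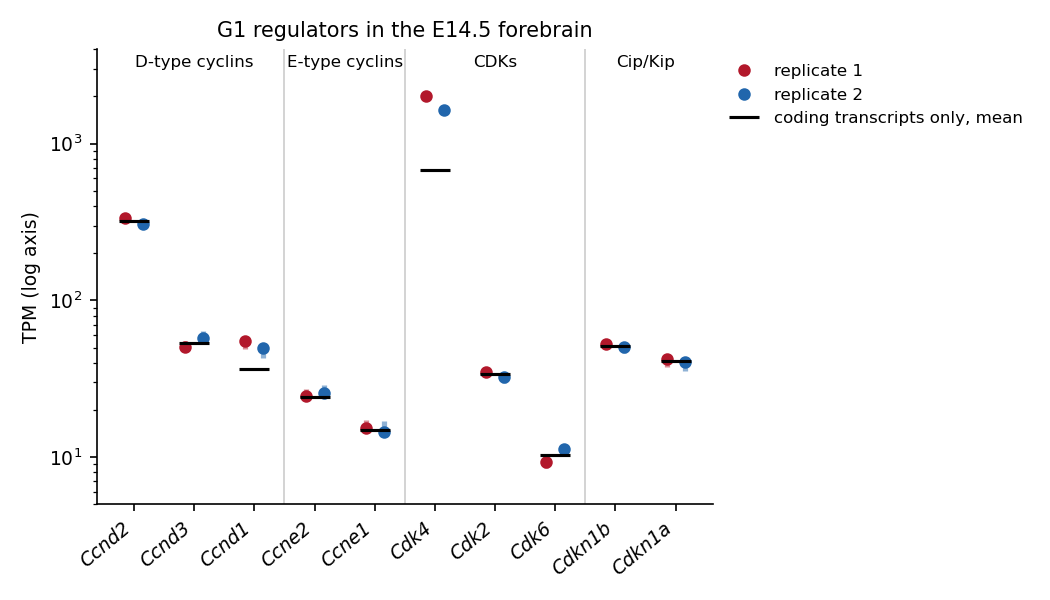
Level of each gene in TPM on a log axis, with a point for each library, a thin line for its deposited interval (mostly hidden by the point) and a black dash for the mean over protein-coding transcripts alone. Cdk4 averaged 1835 TPM over all its transcripts but 674 TPM over the coding ones, and Cdk6, at 10.3 TPM, was the lowest.

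Among the D-type cyclins, the cell's sensors of growth signals, Ccnd2 carried most of the RNA. Ccnd2 (ENSMUSG00000000184.9, chr6:127125162-127152193, minus strand) had 337.2 TPM in replicate 1 and 305.2 TPM in replicate 2, a mean of 321.2 ± 22.6 TPM (SD, n = 2). It rested on 43223 and 30120 expected counts, the most of any of the 10 genes. Ccnd2 made up 76.2% and 74.1% of the summed TPM of the D-type cyclins, which came to 442.5 TPM in replicate 1 and 411.7 TPM in replicate 2. In the developing cortex it is best known from the basal processes of radial glia and from intermediate progenitors.

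Ccnd1, the D-type cyclin most widely studied as an oncogene, and Ccnd3, known for its part in blood and lymphoid cells, were far below. Ccnd1 (ENSMUSG00000070348.4, chr7:144929931-144939925, minus strand) had 55.0 and 49.3 TPM, a mean of 52.1 ± 3.995 TPM, and Ccnd3 (ENSMUSG00000034165.12, chr17:47505051-47599691, plus strand) had 50.4 and 57.3 TPM, a mean of 53.8 ± 4.84 TPM (SD, n = 2 each). The log2 ratio of Ccnd2 to Ccnd1 was 2.62 in replicate 1 and 2.63 in replicate 2, a mean of 2.62 ± 0.01 or 6.16-fold. The log2 ratio of Ccnd2 to Ccnd3 averaged 2.58 ± 0.23, with intervals apart in both libraries. Ccnd1 and Ccnd3 could not be ranked: their log2 ratio was 0.12 in replicate 1 and -0.22 in replicate 2.

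The rank of Ccnd1 rested on a short transcript model. The full-length coding transcript Ccnd1-201 held 70.6% and 68.3% of the gene's TPM, and the 470-nt retained-intron model Ccnd1-202 held 29.4% and 31.7%. By expected counts, the share of Ccnd1-202 was only 4.07% and 4.52%, that is 137 and 102 counts over an effective length of 371 nt. Over protein-coding transcripts alone Ccnd1 averaged 36.2 ± 3.63 TPM, and its log2 ratio to Ccnd3 became -0.56 ± 0.27, with intervals apart in both libraries. The stretch that sets this model apart is shown with the 95 bases of intron in capitals and the first 40 bases of the following coding exon in lower case (chr7:144938063-144938197, minus strand, GRCm38, from the GENCODE M21 transcript).
Ccnd1-202 start: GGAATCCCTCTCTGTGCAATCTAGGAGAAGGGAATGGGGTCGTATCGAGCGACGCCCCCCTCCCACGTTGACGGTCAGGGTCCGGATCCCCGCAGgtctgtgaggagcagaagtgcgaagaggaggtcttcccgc

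By TPM, Ccnd3 was assigned almost wholly to its downstream start. RefSeq lists promoter windows at both starts of the gene, and transcripts that begin in the downstream window held 97.0% and 96.6% of Ccnd3 TPM, whereas those that begin in the upstream window (chr17:47504801-47505100) held 0% and 0.58%. Ccnd3-201, which begins just past the upstream window, held 1.92% and 0%. Ccnd3-205 alone held 96.4% and 96.0% of the 21 transcripts' TPM, but by posterior mean TPM its share averaged 86.9%. The downstream window is shown because it serves that transcript, with its GC boxes (GGGCGG on either strand) in capitals (RefSeq, GRCm38.p6, chr17:47593217-47593516, plus strand).
Ccnd3 downstream promoter: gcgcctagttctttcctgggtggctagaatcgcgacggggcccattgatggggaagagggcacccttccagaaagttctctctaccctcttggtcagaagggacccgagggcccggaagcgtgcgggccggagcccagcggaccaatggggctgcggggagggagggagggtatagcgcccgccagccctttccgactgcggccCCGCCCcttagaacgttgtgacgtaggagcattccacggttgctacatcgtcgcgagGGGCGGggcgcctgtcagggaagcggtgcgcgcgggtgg
GC boxes occur in 35.7% of the 32851 RefSeq windows of the same length, so their presence here is common. Promoter windows were used for 7 of the 10 genes, 9 windows in all, and not for Ccnd1, Ccnd2 and Ccne2.

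The E-type cyclins, the partners of CDK2 at the entry to S phase, were far below the D-type sum. Ccne2 (ENSMUSG00000028212.12, chr4:11191351-11204779, plus strand) had 24.4 and 25.7 TPM, a mean of 25.1 ± 0.95 TPM (SD, n = 2). Ccne1 (ENSMUSG00000002068.12, chr7:38097984-38107534, minus strand) had 15.4 and 14.5 TPM, a mean of 14.9 ± 0.60 TPM (SD, n = 2). Ccne1 was below Ccne2 in both libraries, with a log2 ratio of Ccne1 to Ccne2 of -0.75 ± 0.11 and intervals apart. They summed to 39.7 TPM and 40.2 TPM.

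Ccne1 was assigned mostly to Ccne1-201, at 96.9% and 100% of TPM, though by posterior mean TPM its share averaged 91.4%. Ccne2 was divided between coding transcripts that differ at their ends and at the start of an internal exon. Ccne2-202 held 83.1% of Ccne2 TPM in replicate 1 and 70.0% in replicate 2, and Ccne2-201 held 9.12% and 23.7%, a difference of 14.6 percentage points on 147.9 and 312.0 counts. Their deposited lengths were 2908 nt for Ccne2-202 and 3006 nt for Ccne2-201, and how firmly reads separate them was not tested.

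CDK4, with CDK6 the partner of the D-type cyclins, had by far the highest RNA level of the set by TPM over all transcripts. Its expected counts, not divided by length, were below those of Ccnd2. The effective length was 735 and 768 nt for Cdk4 and 5602 nt for Ccnd2, so these counts do not compare RNA levels. Its TPM over transcripts with a complete coding sequence was also below that of Ccnd2, a sum that leaves out reads assigned to its other models. Cdk4 (ENSMUSG00000006728.8, chr10:127063534-127067920, plus strand) had 2020.5 TPM in replicate 1 and 1650.4 TPM in replicate 2, a mean of 1835 ± 262 TPM (SD, n = 2). It ranked 26 by mean TPM among the 21461 nuclear protein-coding genes. Cdk6 (ENSMUSG00000040274.7, chr5:3341485-3531008, plus strand) had 9.33 and 11.2 TPM, a mean of 10.3 ± 1.35 TPM (SD, n = 2). The log2 ratio of Cdk4 to Cdk6 was 7.76 in replicate 1 and 7.20 in replicate 2. The deposited length of the only Cdk6 transcript with reads, Cdk6-202, was 3735 nt, against 11525 nt in GENCODE M21, and how this bears on its level was not tested.

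Cdk2 (ENSMUSG00000025358.11, chr10:128697939-128705031, minus strand), the kinase that pairs with E-type cyclins, lay between them at 35.1 and 32.4 TPM, a mean of 33.7 ± 1.88 TPM (SD, n = 2). Its log2 ratio to Cdk6 averaged 1.72 ± 0.27, and the log2 ratio of Cdk4 to Cdk2 averaged 5.76 ± 0.13. In all 3 comparisons of the kinases the intervals were apart in both libraries.

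Most of the Cdk4 TPM was assigned to transcript models without a complete annotated coding sequence. Whether the RNA behind these models encodes the full kinase was not tested. The leading transcript was Cdk4-209, a retained-intron model of 468 nt, with 37.9% of Cdk4 TPM in replicate 1 and 37.2% in replicate 2. Cdk4-205, a coding model that lacks its end, held 27.2% and 24.0%, and Cdk4-208, annotated as a target of nonsense-mediated decay, held 18.3% and 21.6%. The full-length coding transcript Cdk4-201 (2053 nt) held only 6.75% and 8.10%. By expected counts the picture was flatter, with 19.0% and 17.9% for Cdk4-209, 31.5% and 26.6% for Cdk4-205, 20.5% and 23.2% for Cdk4-208, and 17.9% and 20.6% for Cdk4-201.

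**Figure D2:**
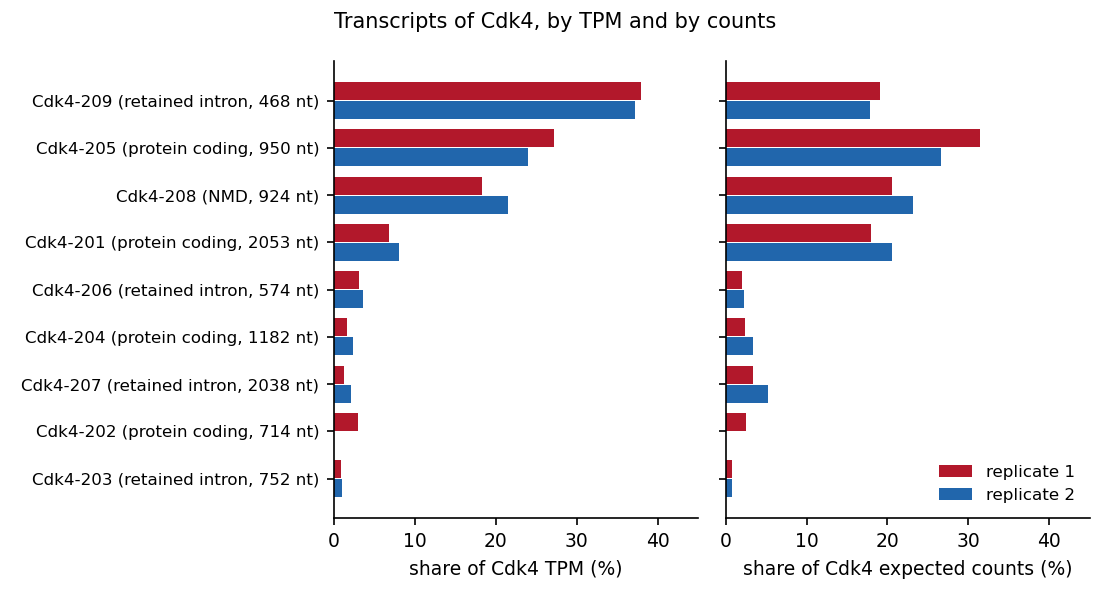
Share of Cdk4 held by each of its 9 transcripts, by TPM (left) and by expected counts (right), with a bar for each library. Cdk4-209, the shortest, leads by TPM at 37.6 ± 0.47% but holds 18.5 ± 0.80% of the counts (mean ± SD, n = 2).

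The sequences show how little separates these models. The first exon of Cdk4-209 is printed with the 25 bases that lie outside the exons of Cdk4-201 in capitals; these belong to the intron just before the exon (chr10:127066076-127066236, plus strand). The remaining bases, and all of its second exon, are shared with Cdk4-201.
Cdk4-209 first exon: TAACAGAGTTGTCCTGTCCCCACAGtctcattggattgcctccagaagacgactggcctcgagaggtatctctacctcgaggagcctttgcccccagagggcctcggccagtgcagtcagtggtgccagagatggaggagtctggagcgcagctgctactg
Cdk4-208 lacks an exon of 136 bases (chr10:127064585-127064720), which is not a multiple of 3. Its junction is shown with 30 bases on each side, from 127064453 to 127064835 on chromosome 10, and the stop codon that follows 4 bases after the junction in capitals.
Cdk4-208 junction: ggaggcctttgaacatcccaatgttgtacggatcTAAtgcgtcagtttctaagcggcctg

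The choice of transcripts changed the order of the set at its top. Over protein-coding transcripts alone, Cdk4 had 778.8 and 569.6 TPM, still above Ccnd2, with a log2 ratio to Ccnd2 of 1.05 ± 0.22 against 2.51 ± 0.10 over all transcripts. Over coding transcripts with a complete coding sequence, a comparison chosen after the data were seen, Cdk4 had 196.2 and 133.7 TPM. Of this, Cdk4-201 held 136.3 and 133.7 TPM, and Cdk4-202, a model of 714 nt, held 59.9 and 0 TPM. The log2 ratio of Cdk4 to Ccnd2 over these transcripts was -0.99. By expected counts, not divided by length, Cdk4 was also below Ccnd2, with 34002 and 22333 counts and a log2 ratio of -0.39. Cdk4 remained above Cdk2 and Cdk6 over protein-coding transcripts, with log2 ratios of 4.30 ± 0.24 and 6.02 ± 0.51, and over those with a complete coding sequence, with log2 ratios of 2.26 and 3.98.

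The leading transcript was not protein-coding in 6.13% of 10310 genes with a mean of at least 5 TPM, and among the 10 genes in Cdk4 alone. The median share of TPM in protein-coding transcripts was 99.7% over the 10 genes, against 98.4% over all genes tested. The lowest shares were those of Ccnd1, at 69.4 ± 1.64%, and Cdk4, at 36.5 ± 2.85% (SD, n = 2 each).

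**Figure D3:**
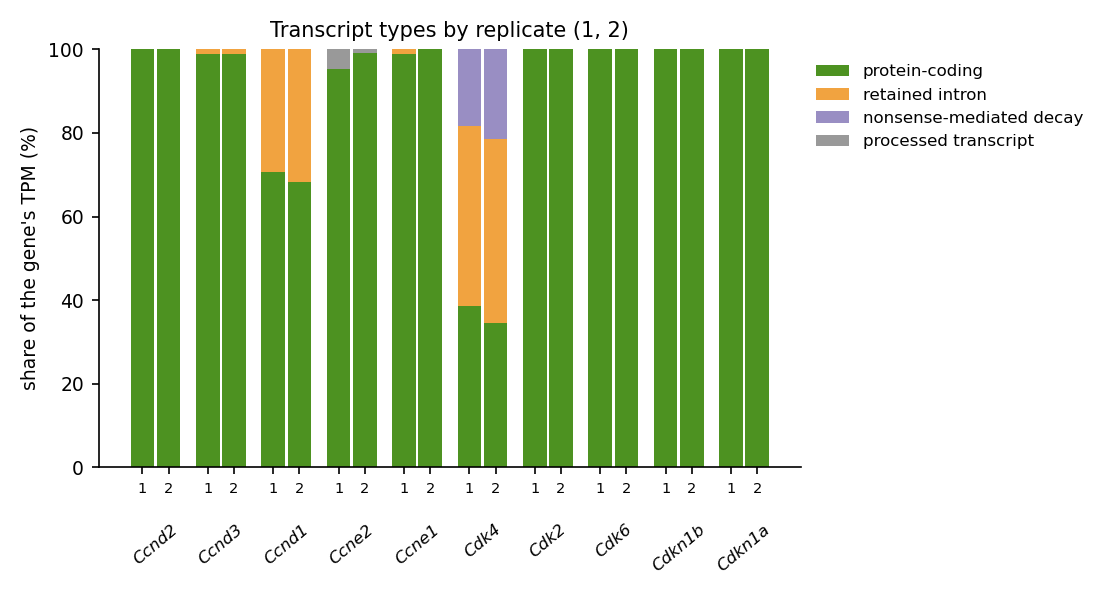
Share of each gene's TPM by annotated transcript type, with a bar for replicate 1 and for replicate 2. Only Cdk4 and Ccnd1 show large non-coding parts, of which retained-intron models were 43.5 ± 0.53% of Cdk4 and 30.6 ± 1.64% of Ccnd1 (mean ± SD, n = 2).

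Cdk2 was fully coding but of a pair of forms. Cdk2-201 held 73.1% and 74.5% of its TPM and Cdk2-202 held 27.0% and 25.5%, so the shares differed by 1.47 points between the libraries. Cdk2-202 carries an extra coding exon of 144 bases, a multiple of 3, that the deposited lengths of 2432 and 2288 nt also show. It is printed because it is the sequence by which the forms can be told apart (chr10:128699976-128700119, minus strand, GRCm38).
Cdk2-202 extra exon: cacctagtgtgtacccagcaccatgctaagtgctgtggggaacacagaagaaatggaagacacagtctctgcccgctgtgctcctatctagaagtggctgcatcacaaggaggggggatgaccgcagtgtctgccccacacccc

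Among the kinase promoters, E-boxes were in the windows of Cdk4 and Cdk6, and an E2F match was in that of Cdk2 alone. The Cdk4 window (chr10:127063285-127063584, plus strand) held 4 E-boxes (CACGTG, the core to which Myc-family proteins bind, which reads the same on both strands), shown in capitals. This motif is in 7.15% of RefSeq windows. Of the Cdk4 transcripts, only Cdk4-201 begins in this window, with 6.75% of Cdk4 TPM in replicate 1 and 8.1% in replicate 2.
Cdk4 promoter: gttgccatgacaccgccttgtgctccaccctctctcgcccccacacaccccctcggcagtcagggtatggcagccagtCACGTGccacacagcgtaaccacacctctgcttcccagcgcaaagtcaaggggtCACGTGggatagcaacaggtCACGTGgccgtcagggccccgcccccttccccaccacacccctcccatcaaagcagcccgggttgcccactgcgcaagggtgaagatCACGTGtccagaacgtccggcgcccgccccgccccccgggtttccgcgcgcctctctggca
The Cdk2 window (chr10:128705002-128705301, minus strand) held 1 match to an E2F motif, TTTCCCGC on the opposite strand, in capitals. The E2F motif, searched on both strands as TTTCCCGC, TTTCGCGC, TTTGCCGC or TTTGGCGC, is in 2.26% of windows and was in no other window of the set.
Cdk2 promoter: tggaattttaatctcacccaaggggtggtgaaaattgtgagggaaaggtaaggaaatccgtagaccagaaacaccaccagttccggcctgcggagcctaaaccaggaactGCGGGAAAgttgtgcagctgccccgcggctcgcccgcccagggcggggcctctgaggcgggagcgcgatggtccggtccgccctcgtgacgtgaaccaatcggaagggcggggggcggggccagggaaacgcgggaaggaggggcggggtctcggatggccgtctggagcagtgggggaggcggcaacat
Both windows also held GC boxes, 3 in Cdk4 and 6 in Cdk2. The Cdk6 window held 1 E-box and 1 TATA box (TATAAA on either strand, in 13.6% of windows). CCAAT boxes, in 37.4% of windows, were in those of Cdk2, Cdkn1b and the downstream Ccnd3 start. A motif match is a match of letters only. The shares are over all windows, with a median of 7 CpG dinucleotides, while the Cdk4 window held 22 and the Cdk2 window 25. Shares among windows of like CpG content are not given here.

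Of the Cip/Kip inhibitors in the set, Cdkn1b was the higher by a small margin. Cdkn1b (ENSMUSG00000003031.10, chr6:134920401-134925513, plus strand), which is linked to cell-cycle exit of neural progenitors, had 52.6 TPM in replicate 1 and 50.2 TPM in replicate 2, a mean of 51.4 ± 1.76 TPM (SD, n = 2). Cdkn1a (ENSMUSG00000023067.9, chr17:29090976-29100727, plus strand), the inhibitor induced by DNA damage through p53, had 42.0 and 40.3 TPM, a mean of 41.1 ± 1.24 TPM (SD, n = 2). The log2 ratio of Cdkn1b to Cdkn1a was 0.33 and 0.32, or 1.25-fold, with intervals apart in both libraries. Over protein-coding transcripts the ratio was the same, 0.32 ± 0.01, but the summed intervals of their transcripts overlapped. Cdkn1b exceeded Cdk2 by a log2 ratio of 0.61 ± 0.03.

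Cdkn1a was read from both of the starts that have a promoter window. Cdkn1a-202, from the upstream start, held 70.1% of Cdkn1a TPM in replicate 1 and 60.0% in replicate 2, Cdkn1a-201, from the downstream start, held 28.1% and 30.4%, and Cdkn1a-203 held 1.80% and 9.67%. Cdkn1a-203 begins in neither window. All 3 transcripts are annotated as protein-coding. The deposited length of Cdkn1a-202 was 748 nt and that of Cdkn1a-201 was 1910 nt, and by expected counts Cdkn1a-201 led, with 52.1% and 54.3% against 46.5% and 38.4% for Cdkn1a-202. GENCODE M21 gives Cdkn1a-202 a length of 922 nt.

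The windows at these starts differed in make-up. The upstream window (chr17:29090729-29091028, plus strand) held 2 CpG dinucleotides, and the downstream window (chr17:29093519-29093818, plus strand) held 23, against a median of 7 over all windows. The upstream window held 3 decamers of the p53 response element, shown in capitals: the first and the second matched with 0 mismatches at a spacing of 12 bases, and the second and the third, with a spacer of 0 bases, matched with 1 mismatch. A pair of such decamers with up to 2 mismatches and a spacer of up to 13 bases is in 2.12% of windows, and an exact pair in 0.0731%. The downstream window held no such pair, and its 2 GC boxes are in capitals.
Cdkn1a upstream promoter: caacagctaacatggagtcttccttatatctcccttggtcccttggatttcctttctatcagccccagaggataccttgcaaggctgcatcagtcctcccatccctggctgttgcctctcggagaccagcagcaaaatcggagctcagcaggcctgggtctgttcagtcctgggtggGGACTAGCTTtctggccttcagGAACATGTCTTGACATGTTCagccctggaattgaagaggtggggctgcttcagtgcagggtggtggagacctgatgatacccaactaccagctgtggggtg
Cdkn1a downstream promoter: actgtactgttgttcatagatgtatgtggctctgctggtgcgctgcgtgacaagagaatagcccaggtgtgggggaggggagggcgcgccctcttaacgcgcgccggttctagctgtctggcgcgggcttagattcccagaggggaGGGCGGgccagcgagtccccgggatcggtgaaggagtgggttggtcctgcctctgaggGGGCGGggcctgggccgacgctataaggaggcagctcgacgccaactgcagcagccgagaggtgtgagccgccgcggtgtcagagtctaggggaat
Trp53, which encodes p53, had 93.9 and 94.6 TPM.

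Both Cdkn1b transcripts share their start and their last base, and Cdkn1b-202 keeps a stretch that Cdkn1b-201 splices out near its end. Cdkn1b-201 (2393 nt) held 87.1% and 79.5% of its TPM and Cdkn1b-202 (4552 nt) held 12.9% and 20.5%. By expected counts, Cdkn1b-202 held 22.4% and 33.4%.

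Beside the other CDK inhibitors, neither Cdkn1a nor Cdkn1b was the highest. Cdkn1c (p57), their Cip/Kip relative and an imprinted gene, had 136.8 and 136.6 TPM, above Cdkn1b by a log2 ratio of 1.41 ± 0.05 and above Cdkn1a by 1.73 ± 0.04, with intervals apart in both libraries. Of the Ink4 family, which blocks CDK4 and CDK6, Cdkn2d (p19) had 89.9 and 98.2 TPM and Cdkn2c (p18) had 8.34 and 8.90 TPM, a log2 ratio of 3.45 ± 0.02. Cdkn2b (p15) had 0.17 and 0.48 TPM, on 5 and 11 counts. Cdkn2a (p16 and p19ARF), the inhibitor tied to senescence, had 0 counts in both libraries, which allows up to 0.169 TPM in replicate 1 and 0.220 TPM in replicate 2. The 3 Cip/Kip genes summed to 231.5 and 227.0 TPM and the 4 Ink4 genes to 98.4 and 107.5 TPM. Cdkn3, a phosphatase that acts on CDKs, had 17.8 and 11.4 TPM.

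Several cyclins and kinases of later phases were above the cyclins and the kinase of the G1/S step, and others were below. Cdk1, the mitotic kinase, had 251.4 and 177.4 TPM, above Cdk2 by a log2 ratio of 2.65 ± 0.28. Over protein-coding transcripts Cdk1 had 123.3 and 88.3 TPM, and the ratio was 1.63 ± 0.26. Ccna2, the cyclin of S and G2 phase, had 116.5 and 97.4 TPM, above Ccne2 by 2.09 ± 0.24. Ccnb1, the main mitotic cyclin, had 179.1 and 139.5 TPM. Ccnf, an F-box protein, had 27.4 and 29.4 TPM, above Ccne1 and Ccne2 in both libraries but below Cdk2. In the other direction, Ccna1, the A-type cyclin of the germ line, had 1.31 and 1.24 TPM, below Ccne1 and Ccne2. Ccnb3 was at 0 and 0.01 TPM and the kinase pseudogene Cdk3-ps at 0.88 and 1.43 TPM. Of the 8 genes in this list, 6 reached 1 TPM in both libraries.

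**Figure D4:**
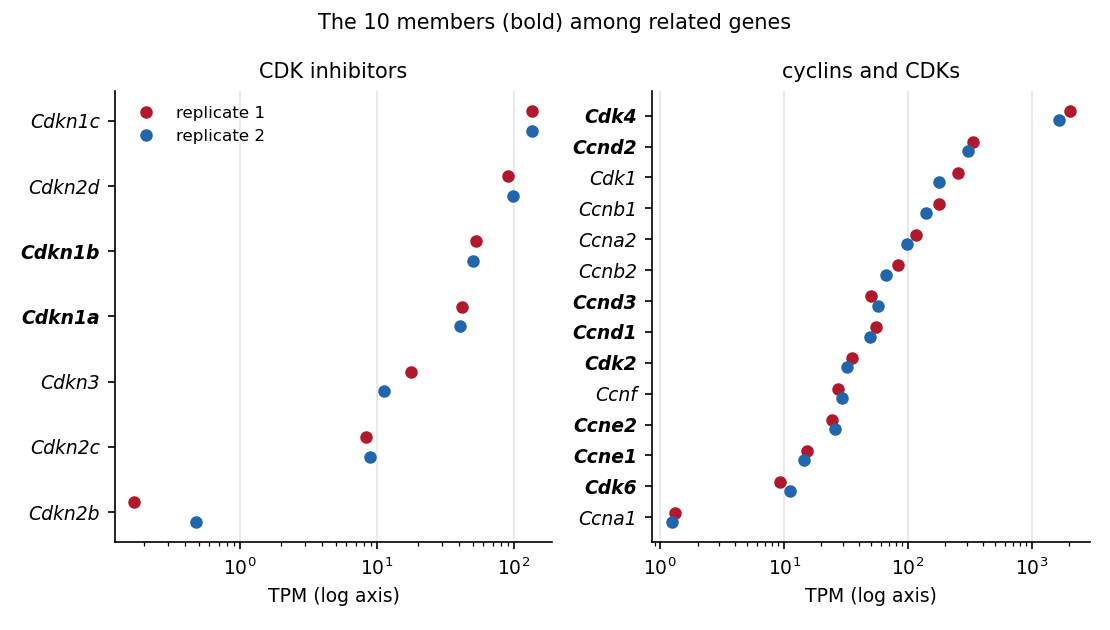
Level in TPM, on log axes, of CDK inhibitors (left) and of cyclins and CDKs (right), with a point for each library and the 10 genes of the set in bold. Cdkn1c is the highest inhibitor and Cdk4 the highest kinase; Cdkn2a, at 0 counts, is not drawn.

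Most of the related genes listed were detected. Of 13 pocket proteins and E2F genes all 13 reached 1 TPM in both libraries, as did 4 of the 6 other CDK inhibitors. The share of all nuclear protein-coding genes at 1 TPM is not given here, so such counts do not set these lists or the 10 genes apart. Tfdp1, the DNA-binding partner of E2F, was highest at 122.8 and 123.7 TPM, followed by E2f4, a mainly repressive E2F, at 41.4 and 42.5 TPM and E2f5 at 34.8 and 33.6 TPM. Rb1, the retinoblastoma gene itself, had 23.0 and 22.5 TPM, while the activator E2f1 had 4.16 and 2.97 TPM. The 6 genes that activate CDKs by phosphorylating or dephosphorylating them were all above 1 TPM, led by Ccnh (88.5 and 99.6 TPM), a subunit of the CDK-activating kinase, and by the phosphatases Cdc25b (26.7 and 25.5 TPM) and Cdc25c (26.3 and 22.6 TPM).

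Genes that control the turnover of the set were likewise present, with 12 of 12 at 1 TPM or more. Skp1a (1043 and 1134 TPM) and Cul1 (130.5 and 135.5 TPM) encode the core of the SCF ubiquitin ligase, and Cks1b (223.3 and 170.5 TPM) its cofactor for Cdkn1b. Upstream, Ctnnb1, the beta-catenin gene, had 556.9 and 541.2 TPM, Gsk3b, a kinase that marks cyclin D1 for destruction, had 107.7 and 132.6 TPM, and Mycn, the Myc family member of neural progenitors, had 86.0 and 112.5 TPM. Of the atypical cyclins and neuronal CDKs, Ccng2 was highest, at 116.5 and 132.5 TPM, Cdk5, the kinase of post-mitotic neurons, had 65.0 and 63.6 TPM, and its activator Cdk5r1 had 71.0 and 77.9 TPM.

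Levels of the 10 genes were compared between the 2 libraries. None was called between them by the rule of at least 1.5-fold with TPM intervals apart, a rule that called replicate 1 higher in 0.280% and lower in 5.02% of 10368 nuclear protein-coding genes with a mean of at least 5 TPM. So few of all genes were called that the lack of a call among these 10 does not set them apart. The log2 ratios of replicate 1 to replicate 2 went from -0.27 for Cdk6 to 0.29 for Cdk4. Without the 1.5-fold minimum, a choice made after the data were seen, the intervals were apart for 4 of the 10: Cdk4 and Ccnd2 were higher in replicate 1, as in 8.18% of all genes, and Ccnd3 and Cdk6 lower, as in 39.0%. With 1 library on each side these ratios have no error of their own, and no test was made.

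The direction over all genes depended on the scaling. Over all genes tested the median log2 ratio was -0.15 by TPM and 0.03 by expected counts scaled with TMM factors, a normalization that assumes most genes do not differ. By TPM, replicate 1 was the higher library for 7 of the 10 genes and for 26.1% of all genes, and by TMM-scaled counts for 9 of the 10 and for 55.6% of all. Among the 10 the sign changed only for Ccnd3, at -0.18 by TPM and 0.02 by TMM, and for Ccne2, at -0.08 and 0.04. Under the same 1.5-fold rule, TMM-scaled counts called replicate 1 higher in 1.25% and lower in 1.04% of genes, and again none of the 10. Relative to the median of all genes, Cdk4 was at 0.44 by TPM and 0.38 by TMM, Ccnd1 at 0.31 and 0.34, Ccnd2 at 0.29 and 0.29, and Cdk2 at 0.26 and 0.26. Cdkn1a, Cdkn1b and Ccne1 lay between 0.13 and 0.23 above that median under both scalings, Ccne2 was at 0.07 and 0.01, and Ccnd3 at -0.04 and -0.01. Cdk6 was lowest, at -0.12 under both.

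**Figure D5:**
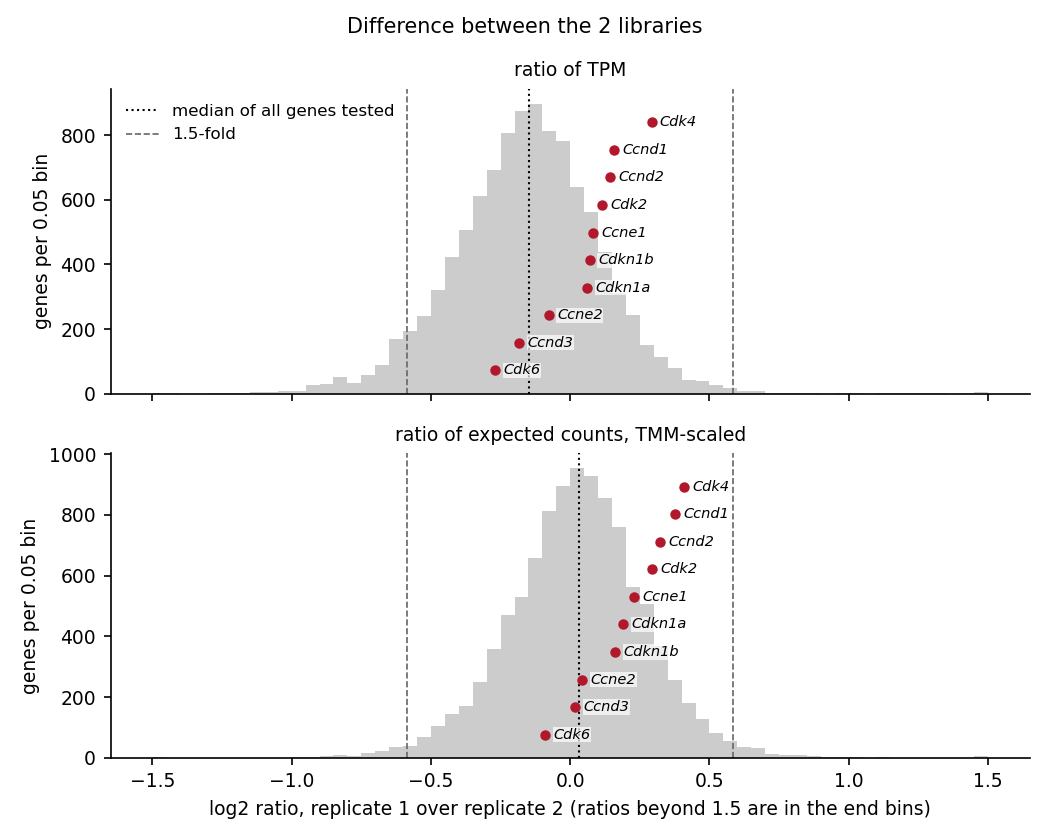
Log2 ratio of replicate 1 to replicate 2 for the 10 genes (red points, height arbitrary) over the distribution for all 10368 genes tested (grey bars), by TPM (top) and by TMM-scaled counts (bottom). All 10 lie inside the dashed 1.5-fold lines, and 8 of the 10 lie above the median of all genes (dotted) under both scalings.

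Levels of cell type markers also differed between the libraries. All 8 markers of proliferating progenitors were above the median of all genes under both scalings, with summed levels of 1166 TPM in replicate 1 and 1014 TPM in replicate 2 and a median log2 ratio 0.35 above that of all genes by TPM. Vim, a filament of radial glia, led them at 600.3 and 517.1 TPM, followed by the replication clamp Pcna at 214.0 and 184.7 TPM. None of the 6 neuronal markers was above that median, and their sums were 3424 and 4242 TPM; Tubb3 had 1486 and 1666 TPM and Gap43 had 689.6 and 829.8 TPM. Of the 7 pericyte and meningeal markers, 1 was above it, with sums of 302.2 and 409.6 TPM, led by Col3a1 (102.2 and 137.3 TPM) and Vtn (74.4 and 104.0 TPM). Red cell markers summed to 11281 and 13965 TPM, with Hba-a2 at 5084 and 6288 TPM and Hbb-bs at 2370 and 3273 TPM (each has a near-identical copy that may share its reads), endothelial markers to 124.5 and 136.9 TPM, with Cldn5 at 76.7 and 83.8 TPM, and microglial markers to 102.9 and 114.0 TPM, with C1qb at 38.1 and 38.5 TPM. Under both scalings, 3 of the 6 endothelial markers and 2 of the 5 microglial markers tested were above the median of all genes. By TPM, Cldn5 and C1qb were among these. None of the 5 red cell markers tested was above it. No marker of these lists was at 0. Whether these marker levels reflect a difference in the cells of the tissue was not tested, nor was their relation to the ratios of the G1 genes.

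Of the cell-cycle lists outside the set, that of the later phases had a larger median ratio than the set itself. The 5 cyclins and CDKs of later phases with a mean of at least 5 TPM had a median log2 ratio 0.49 above that of all genes by TPM and by TMM, against 0.22 by TPM and 0.18 by TMM for the 10 genes. The medians of the other CDK inhibitors, the CDK activators, the pocket proteins and E2F genes, and the turnover genes were lower than that of the 10, at 0.10, 0.15, 0.17 and 0.06 above all genes by TPM. Cdk1 reached 1.42-fold higher in replicate 1 by TPM and was not called. Cdkn3 was called, at 1.57-fold higher in replicate 1, and was called by TMM-scaled counts too. Myc was called by TPM, at 21.1 and 31.9 TPM, a log2 ratio of -0.60, but not by TMM-scaled counts.

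Transcript shares were compared in the same way. The leading transcript was the same in both libraries for all 9 genes with 2 or more transcripts. It differed in 8.24% of 7783 such genes, so few that the lack of a difference does not set the 9 apart. A share that moved by at least 10 percentage points, a threshold chosen after the data were seen, occurred in 2 of the 9, Ccne2 (14.6 points) and Cdkn1a (10.1 points), and in 24.5% of all such genes. By shares of the posterior mean TPM it occurred in 1, Ccne2 (13.7 points), with Cdkn1a at 9.43 points.

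Some of the 10 genes overlap others. Whether counting used the strand is not given in the sources used here. On the opposite strand, Ccne2 overlaps Ints8 over 5622 bases, Cdk4 overlaps Tspan31 over 641, Ccnd3 overlaps Bysl over 361, Cdk2 overlaps Pmel over 837 and Ccnd1 overlaps a gene named LTO1 over 1771 bases, and these neighbours had mean levels of 42.6, 29.8, 24.6, 0.33 and 22.4 TPM. The expected counts of Ccnd2, Ccne1, Cdk2, Cdk6, Cdkn1a and Cdkn1b were whole in both libraries to within 0.005, and those of Ccnd1, Ccnd3, Ccne2 and Cdk4 were not. A gene's expected count departs from a whole number where reads are divided between genes. The Ccnd3 pseudogene Ccnd3-ps had 5 and 1 counts.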

How the data were processed

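Each library had a gene table and a transcript table. Per the file headers, the deposited values are expected counts, TPM, FPKM and, for transcripts, the percent of the gene's TPM, with posterior means and TPM intervals whose level is not stated. Assembly mm10 and GENCODE M4 come from the submitters' processing notes; the aligner, quantifier and strand setting are not given in the sources used here. Effective lengths were 99 nt under the lengths. Names, types and coordinates were taken from GENCODE M21 (GRCm38) by ID without version, which matched 42462 of 43346 genes; 46 of the 54 transcripts had the M21 length. Promoter windows came from RefSeq (GRCm38.p6).

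Means and SDs are over 2 libraries. With a lone group there was nothing to test it against, and 2 values allow no exact p under 0.5. Ratios within a library use deposited TPM with no pseudocount; genes under 3 counts were set to the level of 3 counts. Counts were scaled with edgeR 4.0.16 (TMM) and DESeq2 1.42.0 (R 4.3.3) as alternatives, without their tests, with intervals of 1.96 times the root of the summed posterior and counting variances.

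The 10 genes and all lists and pairs were chosen with earlier results of these data known. Genes named are the 10, up to 3 genes with the highest mean TPM in each pathway list and up to 2 in each marker list, all other CDK inhibitors and the genes of the 15 pairs; transcripts named are the leading one and those with a mean share of at least 10%. Dlx1, Lhx2, En1, Hoxa2, Rb1, E2f1, Trp53, Myc, Ccnf, Ccna1, Ccnb3, Cdk3-ps, neighbouring genes and some minor transcripts, outside that rule, were named after their values were seen, and the motifs were chosen with the sequences in view. Alternatives were posterior means, FPKM, coding transcripts, other scalings, filters and pseudocounts, and leaving out a library.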

Additional observations from a re-analysis of the deposited data

How the results depend on the processing

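Of the 15 gene pairs, 12 kept their direction and their call under each alternative run. Their size could still move: by undivided counts the log2 ratio was 3.71 for Ccnd2 over Ccnd1, 4.17 for Ccnd2 over Ccnd3, 5.20 for Cdk4 over Cdk6, 4.19 for Cdk4 over Cdk2, 1.01 for Cdk2 over Cdk6, 2.59 for Cdkn1c over Cdkn1a and 1.11 for Cdk1 over Cdk2, and over complete coding sequences it was 3.98 for Cdk4 over Cdk6, 2.26 for Cdk4 over Cdk2 and 1.61 for Cdk1 over Cdk2. A result changed direction: the log2 ratio of Cdk4 to Ccnd2, 2.51 over all transcripts, was -0.39 by expected counts not divided by length and -0.99 over transcripts with a complete coding sequence. Ccnd1 over Ccnd3, not called at -0.05, was called at -0.56 over coding transcripts, at -0.55 over those with a complete coding sequence, and at 0.46 by undivided counts. Cdkn1b over Cdkn1a stayed at 0.32 but lost its call over coding transcripts and over complete ones, at 0.32 each; by undivided counts it was 1.74. Leaving out a library gave -0.22 and 0.12 for Ccnd1 over Ccnd3, called at -0.22 without replicate 1. The median level of the 10 genes, 45.5 TPM, was 28.5 as FPKM, 55.3 with TPM rescaled over nuclear protein-coding genes, and 38.7 over coding and over complete transcripts. The neighbouring pairs called apart were 4 of 9 over coding and over complete transcripts, against 7 over all. Genes called between the libraries, 549 by TPM, numbered 238 with TMM factors, 240 with DESeq2 size factors, 1012 with no filter and 32 at 2-fold; calls with replicate 1 higher were 5.28% of all calls by TPM, 54.6% with TMM and 56.3% with DESeq2. The 10 genes had 0 calls under each of these, and 4 without a minimum fold. The median coding share, 99.7%, was 99.0% by posterior means, which also left 1 gene of the set, not 2, with a share that moved by 10 points. Of the recomputed values of single genes, 123 stayed within their spread or kept their call and 28 moved, among them each level as FPKM and as rescaled TPM. The causes were not tested, apart from wider summed intervals by construction. Alternatives using a complete coding sequence, calls without a minimum fold and the 10-point threshold were chosen after seeing the data. The difference between libraries could not be computed without a library. No paired analysis was possible because there is 1 group.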
